A study of Mus musculus with 7 samples.

Results

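Rorb, Fgf23, Ngfr, Tbx4, Pigr and Gm10369 are 6 of the 13218 genes for which reverse transcription (RT) stops were counted in mouse embryonic stem cells (ESCs), and 9 of the 26827 listed transcripts belong to them. They were taken by symbol. They had been chosen by their RT stop counts in these same libraries, as genes of other tissues that were nevertheless counted in ESCs, so their numbers of RT stops are given here as a description. CIRS-seq, which maps RT stops that chemical modification of unpaired bases causes, was done on the lysate of E14 ESCs, a mouse line kept on gelatin with LIF. The lysate was digested with Proteinase K and then exposed to dimethyl sulfate (DMS), to the carbodiimide CMCT, or left non-treated (NT). There were 2 biological replicates of each treatment, and 1 RNA-seq library of the same line without modification. Each DMS library pooled RNA treated at 50 to 200 mM, each CMCT library pooled RNA treated at 10 to 50 mM, and NT pooled the 0 mM samples of both buffers. The libraries held 140186204 to 247369982 RT stops with each genomic position taken once per gene. Each of these totals is larger than the number of reads that the paper gives per treatment. The counts are therefore not numbers of distinct reads.

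DMS methylates unpaired adenosine and cytidine, CMCT forms adducts with unpaired uridine and guanosine, and the reverse transcriptase halts just before the altered base. The counted position was taken here to be the altered base, which is an assumption. A read that reports a stop then begins at the base after the counted position and runs toward the 3′ end. The bases after a position are thus the ones by which the read is placed on a transcript. Where those bases also occur elsewhere in the genome, a count cannot be assigned to 1 gene from the read alone. The untranslated end of mRNAs often contains microsatellites, short units repeated head to tail, which occur in many copies of near-identical sequence.

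Rorb encodes a retinoid-related orphan nuclear receptor of brain and retina, and Tbx4 a T-box transcription factor of the developing hindlimb. Fgf23 encodes a hormone from bone that lowers phosphate in the blood. Ngfr encodes the p75 neurotrophin receptor, and Pigr the receptor that carries polymeric immunoglobulins across mucosal epithelia. Gm10369 is a predicted protein-coding gene. The transcript with the most RT stops was used for positions.

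The base with the most RT stops in each gene follows with the 25 bases after it, read 5′ to 3′ in the sense of the transcript and written as DNA from the mm9 genome. These runs carry the result, because each holds the peak of its gene. In Pigr 20 positions have the same highest count, and the first of them is shown. Capitals mark the longest stretch in which every base equals the base 1 repeat unit before it. For Fgf23 and Tbx4 the most counted base whose following 25 bases occur only once in mm9 is shown as well.
Rorb, position 3683, minus strand, chr19:19010680-19010705: CTTTTCTTTTCTTTTttttttttttt
Fgf23, position 1131, plus strand, chr6:127030743-127030768: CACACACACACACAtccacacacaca
Fgf23, position 1127, plus strand, chr6:127030739-127030764: tactCACACACACACACAtccacaca
Ngfr, position 2417, minus strand, chr11:95431136-95431161: CACACACACACACACACACACACACA
Tbx4, position 1902, plus strand, chr11:85728346-85728371: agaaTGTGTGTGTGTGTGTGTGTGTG
Tbx4, position 1890, plus strand, chr11:85728334-85728359: gaaaggtatttcagaaTGTGTGTGTG
Pigr, position 3468, plus strand, chr1:132748445-132748470: aaggAGAAGAAGAAGAAGAAGAAGAA
Gm10369, position 783, plus strand, chr5:135155650-135155675: attcacaaggccctgggttcaatccc

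All 8 positions lie in the 3′UTR of their gene. In 5 of the 6 genes the peak runs into a microsatellite, which has the same unit in Fgf23 and Ngfr and other units in the rest. The 25 bases after the peak of Ngfr, a pure run of CA, occur 1779013 times in mm9. Those of Tbx4 occur 2412 times, those of Rorb 2202 times and those after position 3468 of Pigr 3631 times. After positions 3471 and 3474 of Pigr, which had as many RT stops, the 25 bases occur 232921 times. The interrupted CA run of Fgf23 occurs 37 times. Gm10369 has no tandem repeat at its peak, and its 25 bases occur at 3 places, on chromosomes 5, 10 and 11. Interspersed repeats were not examined. The place on chromosome 5 is Gm10369 itself, in an intron of Limk1, and the other two have no annotated gene.

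RT stops of Rorb outnumbered those of the 5 other genes together. Its libraries held 1880501 and 1853333 RT stops in NT, 268616 and 270918 in DMS, and 311100 and 264236 in CMCT. It was the third most counted gene of the series and took 1.04% and 1.14% of all RT stops of the NT libraries. Ngfr had 7670 and 10097 in NT, 16006 and 19030 in DMS, and 12826 and 9670 in CMCT. Fgf23 had 2190 and 2183 in NT, 8057 and 8053 in DMS, and 5786 and 5774 in CMCT. In both genes the DMS libraries had the highest counts, before any scaling to the library totals.

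The other genes were far less counted. Pigr had 1184 and 3648 RT stops in NT, 655 and 2830 in DMS, and 966 and 23 in CMCT, so that replicate 2 was the higher in NT and in DMS and by far the lower in CMCT. Tbx4 had 798 and 775 in NT, 874 and 1116 in DMS, and 1085 and 411 in CMCT, and the replicates of CMCT were the lowest and, after DMS replicate 2, the highest of the 6. Gm10369 had 433 and 431 in NT, 17 and 19 in DMS, and 597 and 594 in CMCT, and its DMS libraries were far below the rest.

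Per kb of exon, only some of these genes were rich in RT stops when set against the 13218 listed genes, here called all genes. Rorb had more than 94.4% of genes, Ngfr more than 67.5% and Fgf23 more than 64.3%. Pigr had more than 20.3%, Gm10369 more than 11.2% and Tbx4 more than 4.58%. The last 3 therefore had few RT stops per length among listed genes. Gata6 and Gata4, with 310 and 188 RNA-seq alignments, were not listed, so these shares leave out some genes with RNA.

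RNA-seq placed few reads on 5 of these genes and more on Ngfr. In the exons there were 4 alignments for Rorb (exact 95% Poisson interval 1.09 to 10.2), 4 for Fgf23, 36 for Tbx4, 3 for Pigr and 2 for Gm10369. Ngfr had 157 (interval 133 to 184). In RPKM, which scales alignments to the exon length and to all alignments assigned to genes, the levels were 2.04 for Ngfr, 0.475 for Tbx4, 0.0989 for Fgf23, 0.0782 for Gm10369, 0.0334 for Pigr and 0.0162 for Rorb. The intervals of Ngfr and Tbx4 overlapped neither each other nor those of the other genes. Those of Fgf23, Gm10369, Pigr and Rorb overlapped, so these 4 could not be ordered. There is 1 RNA-seq library, and the intervals cover counting error only.

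The 10 ES cell markers give the scale of an expressed gene in this line. All 10, from Pou5f1 and Nanog to Klf4, had an RPKM over 1, with a range of 5.34 to 316 and a median of 66.9. Of the marker genes of other tissues, the 5 fibroblast, 4 epithelial and 4 bone genes all lay under an RPKM of 1, with summed levels of 0.454, 0.469 and 0.0953. No alignment fell on Olig2, Afp or Bglap. Of 5 neural genes with annotation only Tubb3 exceeded 1, at 16.2, and of 4 endoderm genes Gata4, Gata6 and Sox17 did, at 2.16, 4.35 and 1.02. In bulk RNA a few cells of another type cannot be told apart from little RNA in every cell.

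**Figure D1:**
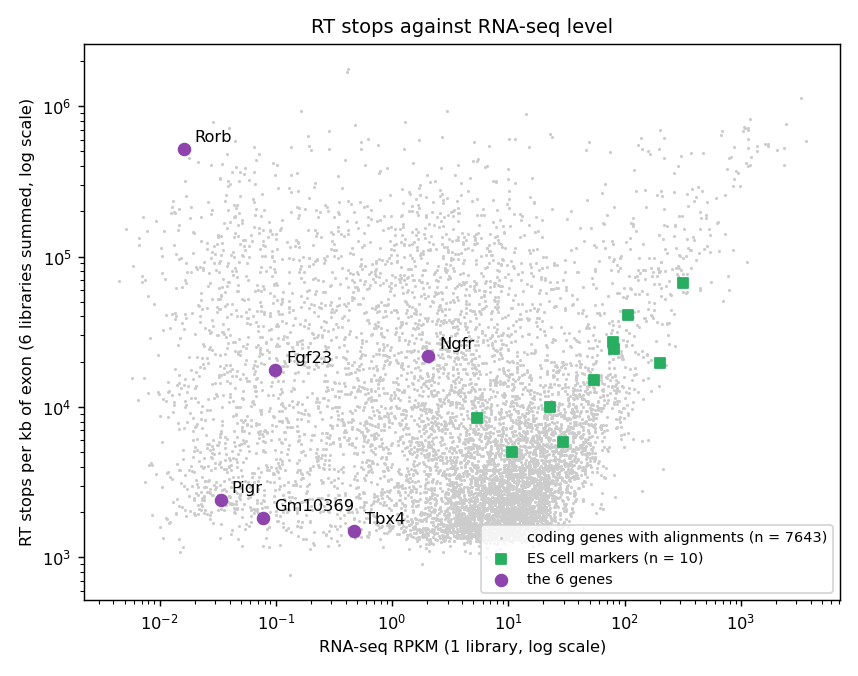
RT stops per kb of exon, summed over the 6 CIRS-seq libraries, against RNA-seq RPKM, both axes on a log scale. The points are 7643 listed protein-coding genes with at least 1 alignment. The 10 ES cell markers (squares) lie at 5.34 to 316 RPKM, and 5 of the 6 genes described here (large circles) lie under 0.5, with Ngfr at 2.04.

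Set against the RNA-seq level, the 6 genes had more RT stops than the ES cell markers, a result that their choice by RT stop counts favors. The ratios are a description, and those of Rorb, Fgf23, Pigr and Gm10369 rest on 2 to 4 alignments. The measure was RT stops per kb of the listed transcripts divided by RNA-seq alignments per kb of all annotated exons, and these lengths differ for Rorb and Pigr. On this scale the markers had a ratio between 4.30 and 71.3, with a median of 14.3. Rorb had 1427697, Fgf23 8011, Pigr 3244, Gm10369 1045.5, Ngfr 480 and Tbx4 141. Among 7643 listed coding genes with alignments the median was 38.0. The ratio of Rorb was above that of 99.99% of them, Fgf23 above 90.5% and Pigr above 85.1%. Gm10369 was above 77.9%, Ngfr above 72.4% and Tbx4 above 62.9%. The ratio was thus extreme in Rorb, and many coding genes had a larger ratio than the 5 others. With only positions whose following 25 bases occur once in mm9, the ratio was 24.9 in Ngfr and 45.5 in Tbx4. It was 10 in Gm10369 and 5.23 in Pigr, and these values lay within the range of the markers (2.16 to 69.6). Rorb had 93.9 and Fgf23 897, above that range.

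The RT stops of these genes were not spread over the transcript. A window of 101 nt around the most counted position held 99.9% of the RT stops of Fgf23, 98.8% of Gm10369, 96.6% of Ngfr, 95.9% of Tbx4, 93.9% of Rorb and 87.0% of Pigr. In Rorb the peak was 1665 nt after the stop codon of a transcript of 9293 nt, in Pigr 972 nt and in Ngfr 956 nt after it. In Fgf23 it was 247 nt, in Gm10369 229 nt and in Tbx4 99 nt after the stop codon. The 3′UTR as a whole held at least 99.9% of the RT stops of Rorb in every library, 99.7% to 100% of Fgf23 and of Pigr, 98.2% to 99.9% of Tbx4 and 96.4% to 98.7% of Ngfr. For Gm10369 it was 99.0% to 100% in NT and CMCT, and 88.2% and 84.2% in DMS, where 17 and 19 RT stops were left in all.

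The peaks of Ngfr and Tbx4 were not matched by RNA-seq reads. These windows hold repeats, and how RNA-seq reads with several genomic places were treated is not given in the sources used here. RNA-seq may thus be unable to show a peak there, so nothing is read from its absence. Of the alignments within the transcript, the window of 101 nt held 6 of 157 for Ngfr, 2 of 36 for Tbx4 and 1 of 2 for Gm10369. It held none of the 3 of Rorb, the 4 of Fgf23 and the 3 of Pigr, and since a count of 0 allows up to 3, nothing can be said of where the RNA-seq reads of these genes lie. In Ngfr the alignments ran along the whole transcript, and the RT stops outside the window did as well.

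**Figure D2:**
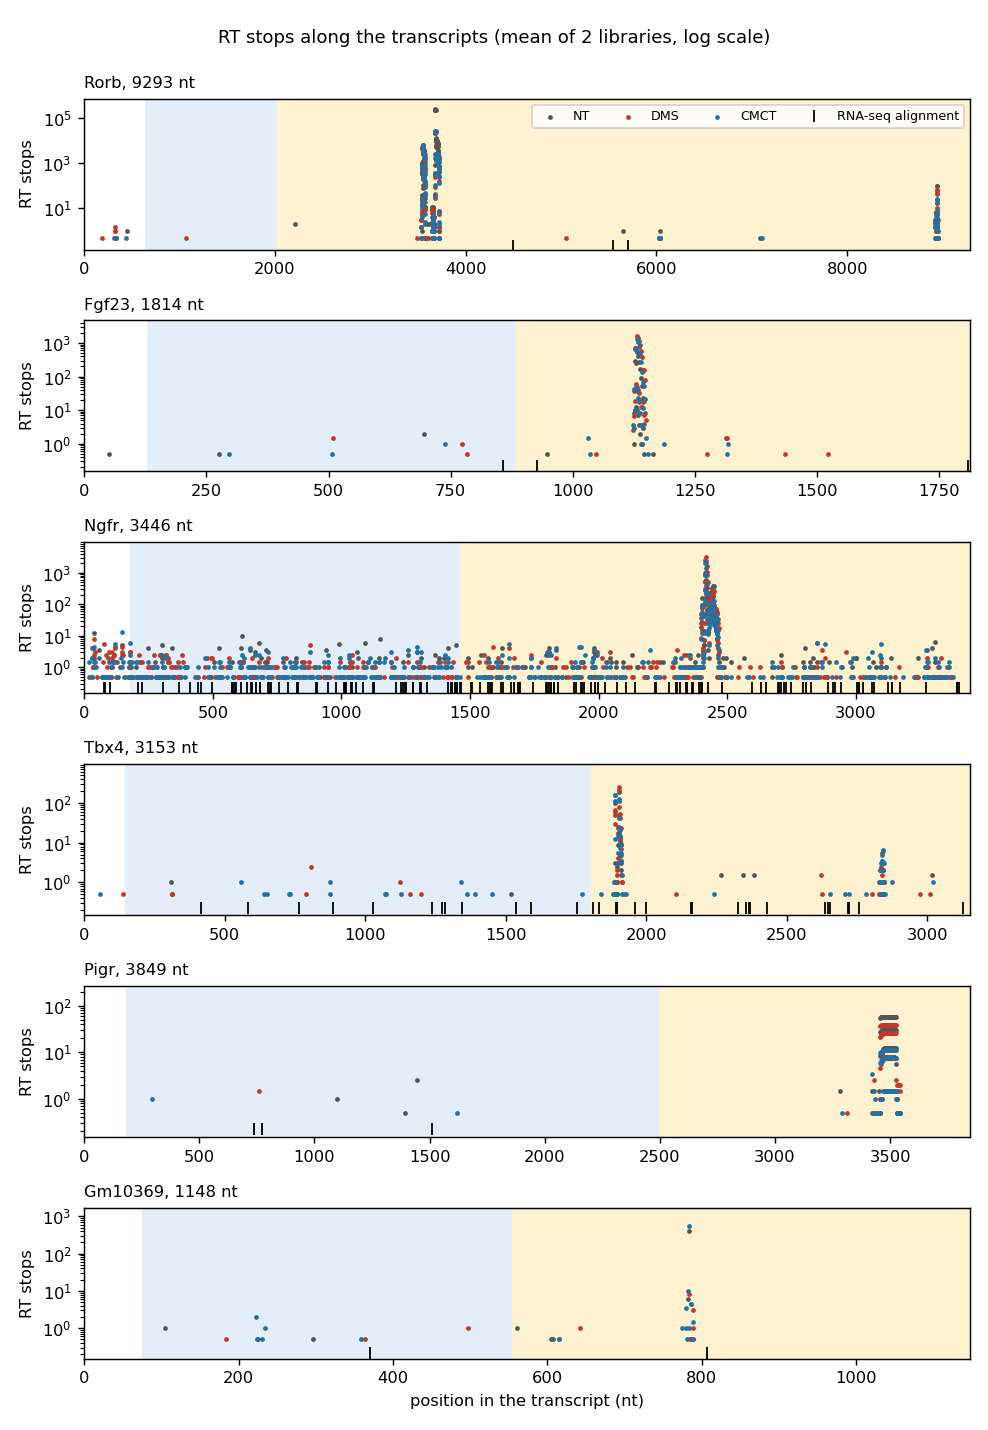
RT stops at each position of the 6 transcripts (points, mean of 2 libraries per treatment, log scale) with RNA-seq alignments as ticks at the bottom, the coding region shaded blue and the 3′UTR shaded yellow. Each gene has 1 main peak in the 3′UTR, which holds 87.0% to 99.9% of its RT stops within 101 nt, and only Ngfr has RT stops and alignments along its whole length.

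Only a small share of positions bore any RT stop. In Ngfr 26.3% of positions had at least 1 over the 6 libraries, and in the other genes 1.89% to 3.08% had. A single position held 95.0% of the RT stops of Gm10369. The 10 most counted positions held 98.9% for Gm10369, 95.5% for Fgf23, 88.1% for Tbx4, 81.6% for Rorb, 68.8% for Ngfr and 23.4% for Pigr. Pigr was the least concentrated because its peak is a plateau, and 22 positions were needed to reach 50% of its RT stops.

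The bases after the counted positions were examined over the whole of each gene. A position was put before a tandem repeat where at least 80% of the following 25 bases equalled the base 1 to 6 before. By this measure 99.8% of the RT stops of Rorb, 99.8% of Pigr, 94.6% of Ngfr, 78.7% of Fgf23 and 65.4% of Tbx4 lay before a tandem repeat, against 0.430% for Gm10369. With 90% in place of 80%, a limit tried after the data were seen, Fgf23 dropped to 2.16%, since its CA run is interrupted, and the others were at 98.3%, 92.0%, 94.0%, 57.9% and 0.0478%. In the whole series, positions before tandem repeats were 0.673% of all positions and held 50.7% of the RT stops, so the pattern is not particular to these genes. The ES cell markers had at most 1.13%.

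Fgf23 and Ngfr had the same main unit, and Rorb, Tbx4 and Pigr others. In Rorb a CTTTT repeat held 55.8%, the run of T that follows it 38.1% and an AC repeat upstream of it 5.94%. Ngfr has AC repeats with 76.2% and, just after them, AG repeats with 18.3%. Fgf23 had 78.7% before AC repeats, Tbx4 62.9% before GT repeats and Pigr 99.6% before AAG repeats.

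**Figure D3:**
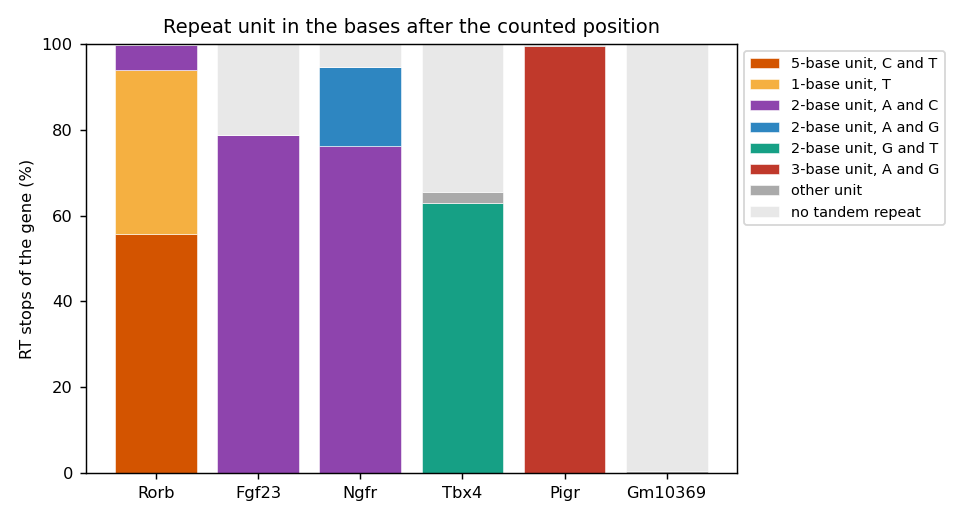
Share of the RT stops of each gene (%, 6 libraries summed, bars from 0 to 100) by the repeat unit of the 25 bases that follow the counted position. Rorb splits into the 5-base unit CTTTT (55.8%), T (38.1%) and AC (5.94%), and Pigr is 99.6% the 3-base unit AAG. Gm10369 has 0.430% before any tandem repeat.

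Few of the RT stops can be assigned to these genes by sequence alone, when the whole of mm9 is searched. The paper mapped reads to an mm9 version with single-nucleotide variants of the E14 line, which was not searched here. Positions whose following 25 bases occur once in mm9 held 32.4% of the RT stops of Tbx4, 11.2% of Fgf23, 5.19% of Ngfr, 0.956% of Gm10369, 0.161% of Pigr and 0.00658% of Rorb. Over all genes the median was 15.3%. With 30 bases in place of 25, Gm10369 went from 0.956% to 99.3% and Fgf23 from 11.2% to 24.4%. The peak of Gm10369 is thus at the limit of the length used, and the read lengths behind the counts are not given in the sources used here.

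In Fgf23 and Tbx4 the positions found once sat at the edge of the same peak. Position 1127 of Fgf23, shown above, had 284 and 284 RT stops in NT, 715 and 715 in DMS, and 674 and 674 in CMCT. Position 1890 of Tbx4, also shown above, had 177 and 140 in NT, 107 and 29 in DMS, and 271 and 40 in CMCT. Both runs enter the microsatellite, so only their first bases tell them from other copies.

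Away from the peak, the RT stops found once were few. Outside the window of 101 nt there were 2425 such RT stops in Ngfr, 305 in Rorb, 96 in Tbx4, 36 in Fgf23, 18 in Gm10369 and 15 in Pigr over all 6 libraries. Divided by the alignments of the transcript, this was 15.4 per alignment in Ngfr and 2.67 in Tbx4, while the ES cell markers had 2.16 to 69.6 RT stops found once per alignment over the whole gene, with no window removed. Fgf23 and Gm10369 had 9, Pigr 5 and Rorb 102 per alignment, on 2 to 4 alignments each.

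In the coding region of Ngfr, where the neurotrophin receptor is encoded, RT stops found once numbered 180 and 122 in NT, 176 and 132 in DMS, and 224 and 154 in CMCT. All treatments overlapped there. They lay on 343 positions. In the coding regions of the 5 other genes, RT stops found once numbered 29 in Tbx4, 16 in Gm10369, 15 in Fgf23, 14 in Pigr and 1 in Rorb over all libraries.

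The same bases carried RT stops in other genes too, where a match in the sense of the transcript or its reverse complement was accepted. The 25 bases after the peak of Ngfr, or their reverse complement, follow a counted position in 1758 other genes. In B430319F04Rik and Barhl2 such a position had 12003 and 12004 RT stops in NT replicate 1. Each had 11215 in DMS replicate 1 and 20903 in CMCT replicate 1. In Ngfr itself the peak had only 1018 and 995 in NT, 3036 and 2972 in DMS, and 2303 and 2067 in CMCT. The bases of Tbx4 occur in 17 other genes, with 10051 and 9208 RT stops in NT at Igsf9, against 175 and 199 at Tbx4. Those of Rorb occur in 13 other genes, of which Acot2 had the most with 3731 and 3731 in NT, while Rorb itself had 242580 and 242582. The same 25 bases, matched on either strand, thus did not carry the same count in every gene. Matches in the same sense were not counted apart.

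Pigr was different in this respect. Its 20 positions from 3468 to 3525, every 3 nt along the AAG repeat, all had exactly 28 and 90 RT stops in NT, 17 and 60 in DMS, and 23 and 0 in CMCT. Of 9 other genes with these bases on either strand, C230029F24Rik, Cplx2 and Dlx6 had the same 6 counts. By the same match, the bases of Fgf23 occur in 1 other listed gene, Gm17670, with 5 and 5 RT stops in NT. Those of Gm10369 occur in none.

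Within a repeat the RT stops followed the unit. In Fgf23 and Ngfr they rose and fell with a step of 2 nt, and in Pigr with a step of 3 nt. On C lay 60.1% to 67.0% of the RT stops of Ngfr over the 6 libraries. On C lay 83.4% and 83.3% of the RT stops of Fgf23 in NT, 85.4% and 85.4% in DMS, and 83.8% and 83.9% in CMCT, so the base was nearly the same with each reagent and with none. In Rorb 27.2% and 27.6% lay on A or C in NT, 36.2% and 36.2% in DMS, and 34.6% and 32.5% in CMCT. The share on A or C was thus higher with both reagents than in NT, while the number of RT stops of Rorb was lower.

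In Tbx4 the share on A was 40.9% and 43.7% in NT, 42.4% and 62.3% in DMS, and 34.8% and 41.9% in CMCT, and the replicates of DMS lay as far apart as any treatments. In Gm10369 at least 95.1% lay on A in NT and CMCT, the base of its peak. In Pigr 77.3% to 84.8% lay on A in the 5 libraries other than CMCT replicate 2, which had 34.8% of only 23.

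**Figure D4:**
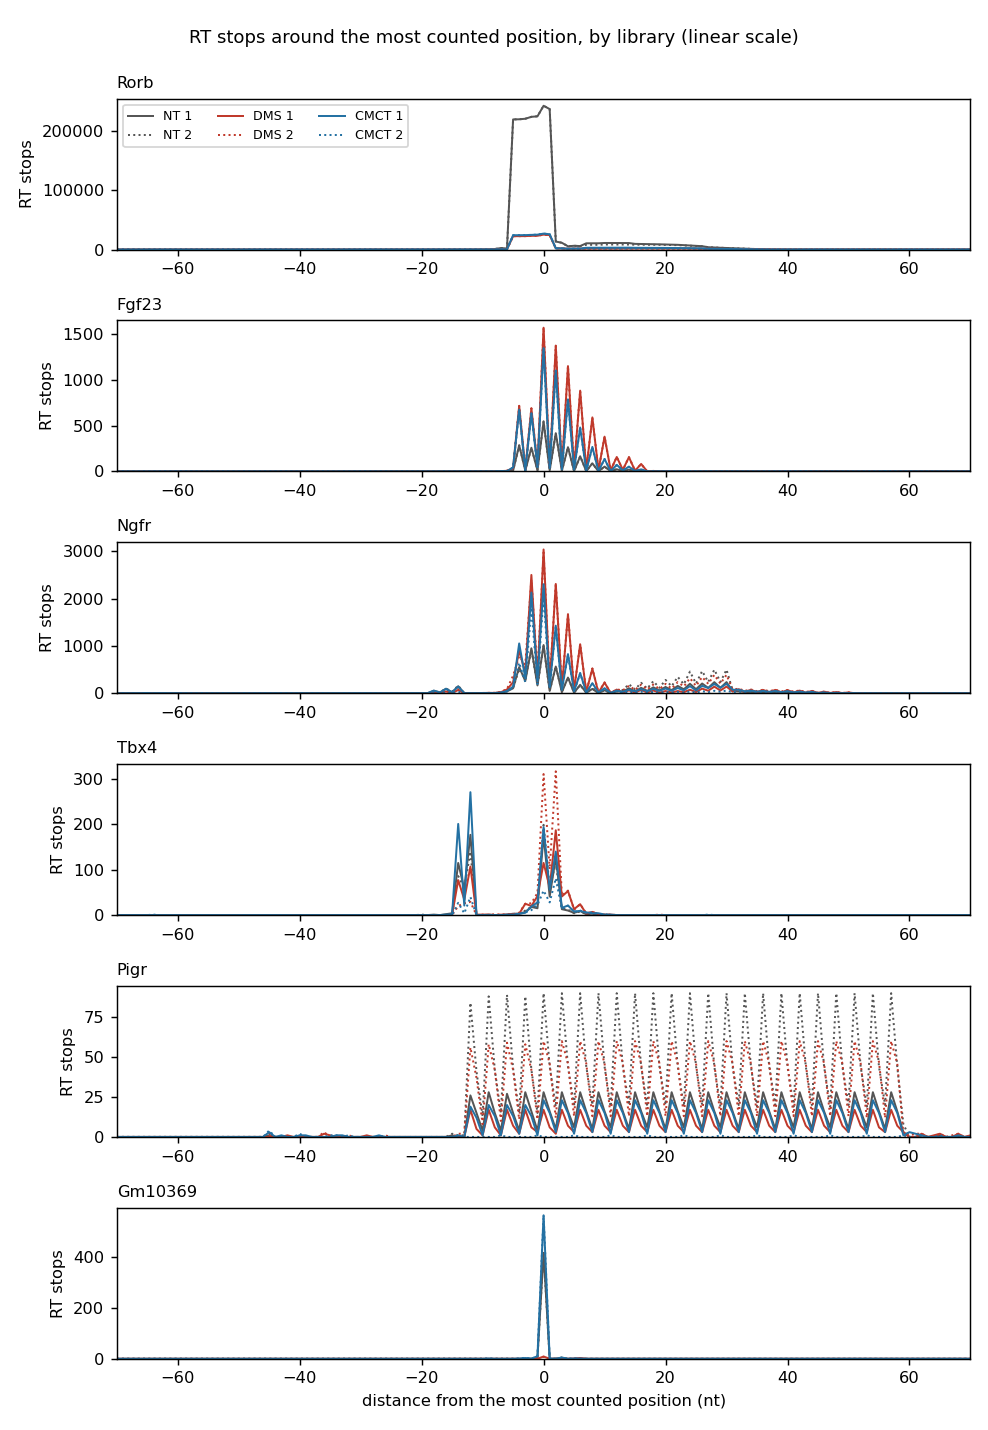
RT stops within 70 nt of the most counted position of each gene, by library (solid, replicate 1; dotted, replicate 2; linear scale from 0). In Fgf23, Ngfr and Pigr the RT stops follow the repeat in steps of 2 or 3 nt, and in Fgf23 and Gm10369 the replicates of a treatment cannot be seen apart.

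Replicates differed in an unequal way among these genes. In Fgf23 the totals of the replicates differed by 0.106, 0.0315 and 0.112 times the counting error in NT, DMS and CMCT. All of its positions with at least 50 RT stops, 8 in NT, 16 in DMS and 13 in CMCT, were equal within 1. Over all genes 21.6%, 24.5% and 23.5% of such positions were equal within 1. In Gm10369 the peak had 418 and 418 in NT, 9 and 8 in DMS, and 566 and 567 in CMCT. Its totals differed by 0.068, 0.333 and 0.0869 times the counting error, with only 17 and 19 RT stops in DMS. Among genes with 1000 RT stops or more, 16.5% in NT, 17.8% in DMS and 9.17% in CMCT also stayed below the counting error. The CMCT libraries differed 1.76-fold in total. As Fgf23 and Gm10369 stayed below the counting error in every treatment, they were counted as 1 sample per treatment and given no test.

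Rorb showed the same in part. The RT stops before its CTTTT repeat were 1114491 and 1114575 in NT, 114763 and 114790 in DMS, and 123316 and 123198 in CMCT, which is 0.0563, 0.0564 and 0.238 times the counting error. Those before its run of T differed by 24.8, 3.71 and 43.9 times the counting error. In CMCT its AC repeat had 62274 and 36654, a ratio near that of the libraries. Repeats in 1 transcript thus went with different replicate ratios.

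In Pigr the replicates differed in the same direction as at the AAG repeats of other genes. Before the AAG repeats of Pigr, replicate 2 over replicate 1 stood at 3.09 for NT, 4.35 for DMS and 0.0188 for CMCT, and before those of 150 other genes at 3.07, 3.97 and 0.0627. The AG repeats of Ngfr had 2.07, 2.53 and 0.369, and those of other genes 2.08, 2.45 and 0.346. For the AC repeats of Ngfr the ratios were 1.09, 1.05 and 0.849, against 1.009, 0.860 and 0.490 elsewhere. For the GT repeats of Tbx4 they were 1.09, 1.67 and 0.524, against 1.02, 0.700 and 0.266 elsewhere. The AG repeats of Ngfr thus had ratios near those of their unit in other genes in all treatments. The AAG repeats of Pigr did in NT and DMS, while in CMCT their ratio was lower than elsewhere. Some other genes had positions with the same counts as Pigr in every library, so these were not all separate measurements. The AC repeats of Ngfr and the GT repeats of Tbx4 had higher ratios than elsewhere in all treatments. No test was made of these differences.

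Treated libraries were compared with NT by edgeR's quasi-likelihood test over 13216 genes, with 2 libraries per treatment. Both comparisons share the NT libraries. RT stops of Rorb fell by 3.27 ± 0.53 on the log2 scale (SE) in DMS and by 3.20 ± 0.52 in CMCT, with Benjamini-Hochberg adjusted p = 0.00114 and 0.00126. Of the 4 genes with a test, only Rorb passed at 0.05 in DMS, where 26.4% of all genes were called, and 12.5% were called lower. In CMCT 29.0% of all genes were called and 13.9% were lower. As its replicates differed by less than the counting error before the CTTTT repeat, the p-values of Rorb treat as independent what may not be. Rorb was also chosen by its RT stop counts in these libraries, and NT held most of them. Its choice thus favors a fall against NT, and its fold changes and p-values are given as a description.

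Ngfr and Tbx4 did not pass in either comparison with this fit. For Ngfr the log2 fold change was 0.48 ± 0.35 in DMS and -0.21 ± 0.35 in CMCT (adjusted p = 0.337 and 0.690, edgeR). In DMS it was 0.13 without NT replicate 1 and 0.94 without NT replicate 2, and in CMCT -0.56 and 0.25, and none of these passed. For Tbx4 it was -0.13 ± 0.28 and -0.71 ± 0.29 (adjusted p = 0.766 and 0.0846, edgeR). The call of Tbx4 in CMCT depended on the fit, since it passed with DESeq2 (adjusted p = 0.0306), with a replicate block (0.0242, edgeR) and without CMCT replicate 1 (0.0175, edgeR), where the lone CMCT library is assumed to vary like the other groups. Pigr had -1.03 ± 0.99 in DMS (adjusted p = 0.470, edgeR), and it passed with a replicate block (-1.04 ± 0.38, adjusted p = 0.0215). Without DMS replicate 2 it was at -2.55, with a single DMS library whose spread is taken from the other groups, although the DMS replicates of Pigr differed 4.32-fold.

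The drop of Pigr in CMCT and that of Gm10369 in DMS were known beforehand and are given with no test. In CMCT Pigr was at -3.23 ± 1.07 on the log2 scale. Its size depends on the libraries used. It was -6.96 without CMCT replicate 1, where only the library with 23 RT stops remained, -2.31 without CMCT replicate 2, -3.92 without NT replicate 1 and -1.88 without NT replicate 2. Gm10369 was at -5.05 in DMS and at -0.01 in CMCT. Without its most counted position it was at -1.05 in DMS, on very few RT stops. Fgf23 was at 1.41 in DMS and at 0.93 in CMCT. At positions found once it was at 0.91 in DMS and 0.67 in CMCT, and outside tandem repeats at 0.91 and 0.68. In CMCT it was 1.25 without CMCT replicate 1 and 0.52 without CMCT replicate 2.

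The change of Rorb lay in its pyrimidine repeat. Before the CTTTT repeat, DMS over NT was -3.19 and -3.20 on the log2 scale in replicates 1 and 2 after scaling to library totals, and before the run of T -2.80 and -2.72. Before its AC repeat it was 0.54 and 0.47, and CMCT over NT there was 0.21 and 0.04. The edgeR fold changes use TMM factors in place of library totals, so they are not on the same scale as these values. In 1370 other genes with RT stops before runs of T, DMS over NT was -1.57 and -1.54 and CMCT over NT -2.08 and -1.48, so the direction was shared with other genes while the size was larger in Rorb. No test was made of this difference.

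Where the positions were limited, the fall of Rorb was no longer called. At positions outside tandem repeats, a choice made after the data were seen, Rorb was at 0.56 ± 0.30 in DMS and 0.29 ± 0.29 in CMCT (adjusted p = 0.216 and 0.531, edgeR), the opposite direction. At positions found once it was still lower but by less, at -0.79 ± 0.55 and -1.48 ± 0.56 (adjusted p = 0.366 and 0.157, edgeR). Ngfr turned from 0.48 to -0.71 ± 0.23 in DMS at positions found once (adjusted p = 0.114, edgeR). Of all genes tested at positions found once, 8.91% were called in DMS and 5.55% in CMCT, and outside tandem repeats 14.7% and 12.3%. Tbx4 moved in DMS from -0.13 to -1.39 ± 0.60 at positions found once and to -1.23 ± 0.54 outside tandem repeats (adjusted p = 0.169 and 0.145, edgeR). None of Rorb, Ngfr and Tbx4 was called with either choice. Pigr had too few RT stops for a fit with either choice, and Gm10369 too few at positions found once. Outside tandem repeats Gm10369 was at -5.08 in DMS and at -0.15 in CMCT, given with no test.

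**Figure D5:**
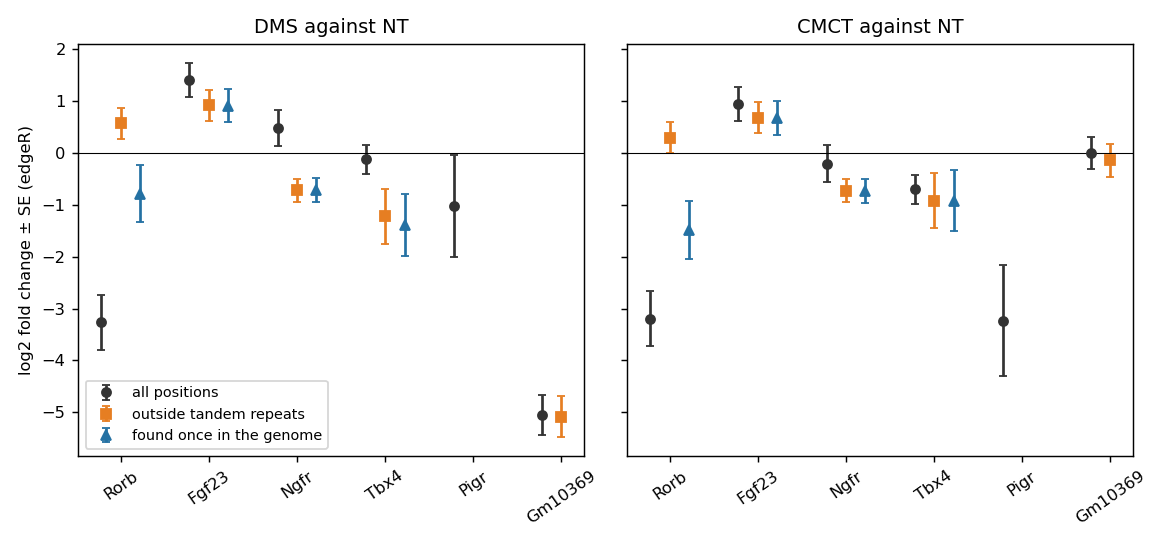
log2 fold change of RT stops against NT (edgeR, bars are ± SE of the fit) for DMS and CMCT, with all positions (circles), positions outside tandem repeats (squares) and positions found once in mm9 (triangles). Rorb moves from -3.27 with all positions to 0.56 outside tandem repeats in DMS, and the bars of Fgf23 and Gm10369 come from replicates that were counted as 1 sample.

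Other genes of the same families and pathways were mostly not among the listed transcripts. Of 28 ligands, receptors and relatives, 5 were listed, and 4 had an RPKM over 1. Rora, the closest listed relative of Rorb, had 70359 RT stops and 0.291 RPKM, and 87.1% of its RT stops lay before tandem repeats. Tbx5, the paralog of Tbx4 that acts in the forelimb, had 43488 RT stops on 1 alignment, 91.0% of them before tandem repeats. Fgf10, a signal of limb outgrowth, had 54275 RT stops on 52 alignments, with 96.7%. Tbx3, a T-box factor expressed in ESCs, had 6.70 RPKM and 24.8%. Fgfr1, a receptor of Fgf23, has 2 annotated genes. The higher RPKM of the 2 was 2.58, and 1 of them had a share of 7.05%. These values may not belong to the same gene. The relatives that were not listed have no RT stops in the deposited counts and so no such share. The shares above hold only for relatives that were listed, and nothing is read from them.

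In the treatment comparisons none of these genes was called in DMS, where 26.4% of all genes were. In CMCT 2 of 6 fell, against 13.9% of all genes called lower, Fgf10 by 2.16 ± 0.58 and Tbx5 by 1.92 ± 0.55 on the log2 scale (adjusted p = 0.0152 and 0.0213, edgeR). The symbol Fgfr1 stands for a pair of annotated genes, so 6 were tested, and with so few genes nothing is read from the count. The median log2 fold change was -0.11 in DMS and -0.23 in CMCT, against 0.01 and 0.11 over all genes.

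Over the 6 libraries, the gene most like each of the 6 in log2 RT stops scaled to the library was named by Pearson's r. With so few libraries r is a description. It was Slc5a3 for Rorb (r = 0.9994), Pdzrn3 for Fgf23 (0.99995), Six3os1 for Ngfr (0.9985), C230029F24Rik for Tbx4 (0.9974) and Gm15716 for Pigr (0.99999). Of the RT stops of each of these 5 genes, at least 89.1% lay before tandem repeats. For Gm10369 it was a copy of 5S_rRNA (0.9992), with none before tandem repeats. The number of genes with r over 0.99 was 323 for Rorb, 182 for Fgf23, 39 for Gm10369, 22 for Tbx4, 16 for Pigr and 15 for Ngfr.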

How the data were processed

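The authors deposited, for each of the 6 CIRS-seq libraries, raw counts of RT stops per transcript position, without normalization, and the RNA-seq library as single alignments of 50 bases to mm9, here counted per gene. The submitters' processing notes name Bowtie 1.0.0, TopHat2 2.0.6, bedtools 2.17.0 and FastQC 0.10.1. How reads with several places in the genome were treated is not given in the sources used here. Files that join both replicates were not used.

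The members and the gene lists were chosen with earlier results of these data known, and the result of 1 marker list is not reported here. Per the study, replicates are biological. Library totals, with each genomic position taken once per gene, were 140186204 to 247369982 RT stops, and intervals cover counting error only. The last 25 nt of a transcript carry no RT stop. GENCODE vM1 on mm9 gave genes and coding regions, and the bases after each position were searched on both strands of mm9. RNA-seq alignments (31857551, of which 70.0% lay in the exons of 1 gene) were assigned by their midpoint, and 41.5% came from read names seen more than once.

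The quasi-likelihood test of edgeR 4.0.16 (R 4.3.3) was fitted once over the 6 libraries with TMM factors and filterByExpr, at a Benjamini-Hochberg threshold of 0.05, and was tested on simulated data. DESeq2 1.42.0, other size factors, no filter, limited positions, a replicate block and each library left out were alternatives. Named positions were the most counted of each gene. Named other genes were those with the most RT stops on the same bases of either strand, and the most alike over the libraries. Scripts used Python 3.11.15, numpy 2.4.6, pandas 2.3.3, numba 0.67.0, scipy 1.17.1 and matplotlib 3.10.9.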

Additional observations from a re-analysis of the deposited data

How the results depend on the processing

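Of all genes, 3485 were called in DMS and 3827 in CMCT. The counts were 5593 and 4937 with DESeq2, 1027 and 639 at positions found once, 1907 and 1592 at positions outside tandem repeats, and 1719 to 3130 in DMS and 1600 to 4402 in CMCT when 1 library was left out. Of the fits with 1 library left out, the lowest counts came without NT replicate 2. Deviations of samples with the same replicate number correlated at 0.55 between NT and DMS, at 0.02 between NT and CMCT and at -0.10 between DMS and CMCT. The labels tie no number to a shared batch, and 2 replicates are too few for these values to settle the pairing, so it was not assumed. With a replicate block 5616 and 5030 genes were called. Under the block Pigr in DMS (adjusted p = 0.0215) and Tbx4 in CMCT (adjusted p = 0.0242, edgeR) passed. So did Tbx4 in CMCT with DESeq2 (0.0306) and without CMCT replicate 1 (0.0175), and Pigr in DMS without DMS replicate 2, where a lone library is assumed to vary like the other groups, and the cause was not tested. Rorb kept its fall in both comparisons under every other scaling, without its most counted position and without any 1 library, except for an adjusted p of 0.0503 without DMS replicate 1, and the cause was not tested. It reversed to 0.56 in DMS and 0.29 in CMCT outside tandem repeats. Ngfr reversed in DMS to -0.71 at positions found once and -0.72 outside tandem repeats. With 1 library left out, Ngfr ranged from 0.13 to 0.94 in DMS and from -0.56 to 0.25 in CMCT, Tbx4 from -0.48 to 0.065 in DMS and Pigr from -2.55 to 0.32 in DMS and from -6.96 to -1.88 in CMCT.

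The share of RT stops at the most counted positions fell with their number by construction. At 5 positions and at 1 it was 57.5% and 12.2% for Rorb, 73.6% and 21.6% for Fgf23, 55.5% and 16.5% for Ngfr, 72.2% and 20.7% for Tbx4, 11.7% and 2.34% for Pigr, and 98.1% and 95.0% for Gm10369. The share found once was 0.0850% for Rorb and 11.4% for Fgf23 with 25 bases that include the counted one, and 0.0961% for Rorb, 24.4% for Fgf23 and 99.3% for Gm10369 with 30 bases. RNA-seq alignments stayed within their counting intervals under both other rules of assignment.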
